A study of Homo sapiens with 6 samples.

Results

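The genes described here are 28 genes of cholesterol synthesis and sterol regulation, taken by symbol from a fixed list out of the 56638 genes counted. They are 7 enzymes from acetyl-CoA to farnesyl diphosphate, 11 enzymes from squalene to cholesterol, 6 genes of the SREBP pathway and sterol transport, and 4 genes of the LXR pathway. All 28 were in the count table, and 26 had enough counts to be tested. The list does not hold every gene of the pathway, and genes outside it and outside the lists named further on were not used here. It was chosen with earlier results of these data known, so shares of its genes beside those of all genes are descriptions only. RNA was sequenced from HL60, a human line of promyelocytic acute myeloid leukaemia, grown in RPMI medium with 10% serum. One group of 3 libraries came from the line numbered 3, labelled as carrying a CRISPR/Cas9 deletion of SKI, and is called the knockout after that label. The other 3 came from the line numbered 1, a CRISPR/Cas9 control. Each group was thus a single line, whether clone or pool is not stated, and line and genotype cannot be told apart. Since no label describes the replicates as separate cultures, every p-value rests on the spread between libraries, which may be only technical.

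Cholesterol is built from acetyl-CoA by way of mevalonate, farnesyl diphosphate, squalene and lanosterol. SREBP transcription factors, encoded by SREBF1 and SREBF2, are held in the endoplasmic reticulum by SCAP and INSIG proteins while sterols are plentiful. When sterols run low they move to the Golgi, are cleaved, and switch on genes of sterol synthesis and uptake, SREBF1 products mainly those of fatty acid synthesis. LXR receptors such as NR1H3 respond to oxysterols and switch on exporters (ABCA1, ABCG1), SREBF1, and MYLIP, a ubiquitin ligase that sends lipoprotein receptors to degradation.

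The libraries held 47930276 to 58553247 counts. SKI, the targeted gene, stood at 63.9, 83.5 and 88.5 CPM (counts scaled to a library of fixed size, by its TMM-adjusted total) in the control and 59.6, 40.7 and 42.0 CPM in the knockout (log2 fold change -0.73, edgeR adjusted p = 0.0282). More SKI RNA thus remained than was lost, and a count over the whole gene does not show whether or where it was edited. That call ended with library totals (adjusted p = 0.0673) and without control replicate 2 (0.109), control replicate 3 (0.136) or knockout replicate 2 (0.0769). Of 8 promyelocytic markers, ELANE and KIT were below 1 CPM in every library, and the sum of the 8 was 12440 to 14803 CPM in the control and 3030 to 9176 CPM in the knockout. Most of each sum was MPO, the myeloperoxidase gene (11626 to 13987 and 2562 to 8538 CPM). MPO, AZU1, PRTN3 and CD33 were called lower (log2 -1.39, -2.63, -4.18 and -0.57), while MYB at -0.58 and SPI1 at -0.42 did not pass. All 15 markers of other cell types, 4 of them at 0 throughout, were below 1 CPM in every library, with sums of 0.272 to 0.481 CPM and 0.331 to 0.591 CPM. The median log2 fold change of a whole chromosome was farthest from 0 for chromosome 19 (-0.48), which holds none of the 28 genes but ELANE, AZU1, PRTN3 and CD33 of the markers. It was 0.43 for chromosome 6, with ACAT2 and MYLIP, 0.22 for chromosome 22, with SREBF2, -0.23 for chromosome 9, with ABCA1, and -0.11 for chromosome 16, with MVD.

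Compared per gene length, as CPM per kilobase (RPKM), the sterol genes spanned a wide range in control cells. FDPS, which makes farnesyl diphosphate, had the highest mean, 68.7 ± 7.99 (SD, n = 3), followed by SREBF2 at 57.0 ± 6.79 (SD, n = 3), and their libraries overlapped. FDFT1, the squalene synthase, came next at 33.7 ± 2.19 (SD, n = 3), below every SREBF2 library and above every library of EBP, the sterol isomerase, at 22.7 ± 2.96 (SD, n = 3). EBP and the phosphomevalonate kinase gene PMVK, at 21.3 ± 1.97 (SD, n = 3), overlapped. Of the tested genes the lowest were NR1H3 at 0.774 ± 0.118, the sterol desaturase gene SC5D at 1.33 ± 0.0729 and STARD4, a sterol carrier of the cytosol, at 1.51 ± 0.325 (SD, n = 3 each), the last pair overlapping. The exporters ABCA1 and ABCG1 were barely detected, as described with the LXR genes.

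**Figure D1:**
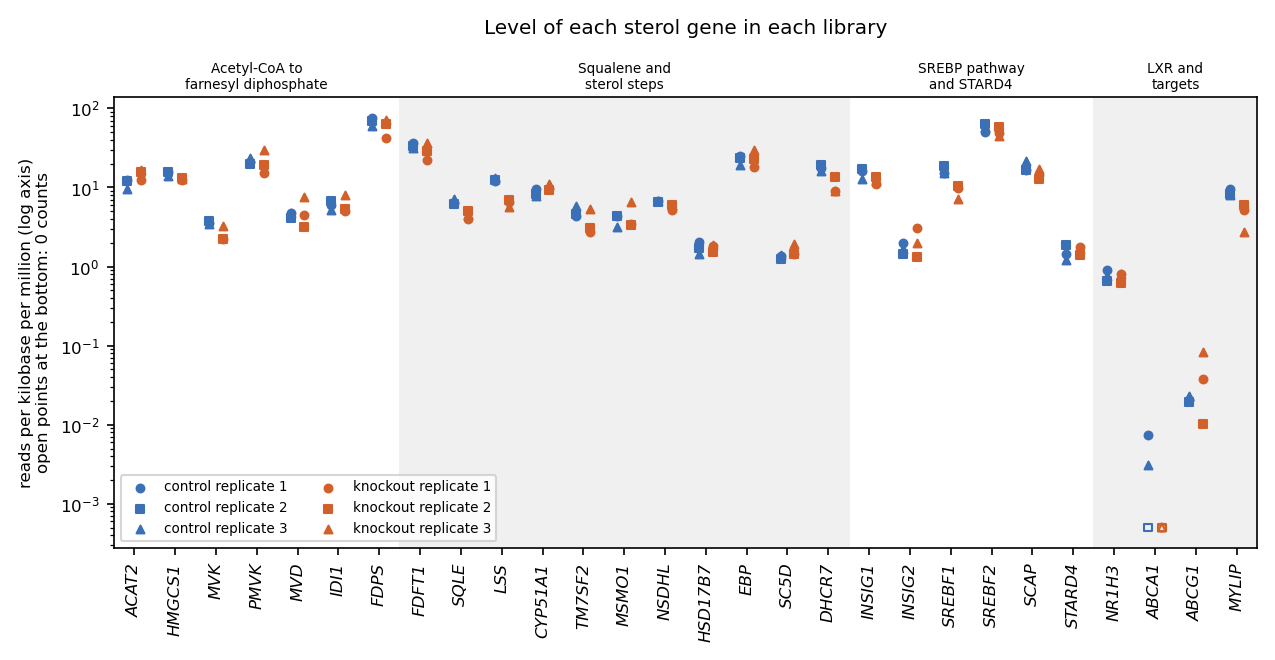
RPKM (log axis) of each of the 28 sterol genes, 1 point per library, with control libraries in blue and knockout libraries in orange; open points at the bottom mark 0 counts. FDPS and SREBF2 stand highest, and ABCA1 and ABCG1 far below the rest. Orange points lie below all blue points for LSS, DHCR7, SREBF1, SQLE, MYLIP, HMGCS1, MVK and NSDHL, and above them for ACAT2 and SC5D. Of all tested genes, 16.1% separate in this way as lower and 16% as higher.

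The windows before the RefSeq transcription starts of these genes (GRCh38.p14) were searched on both strands. SREBPs and LXR receptors switch on genes of these pathways, and a promoter is one place where they could act. A CCAAT box is not taken here as a site of either. Of the 28 genes, 24 had an entry, while ACAT2, FDFT1, SQLE and ABCG1 had none. The CCAAT box (CCAAT, or ATTGG on the other strand) lay within 250 bases before the first listed start of 16 of the 24 genes, 66.7%, against 35.0% of 9490 other tested genes. Over all 35116 starts the share was 32.0%. A sterol element, written as ATCAC and CCAC with 1 base between them, was matched in SREBF2 alone among the 24, and in 0.125% of all starts. Its inner part CACNCCA, which overlaps the full element, was found before 9 of the 24 starts, 37.5%, against 13.2% of the other tested genes and 14.7% of all starts. The E-box CACGTG was found before 4 of them, 16.7%, against 9.25% of other tested genes and 6.34% of all starts. A repeat of AGGTCA with 4 bases between the copies, the form LXR binds, was found before none of the 24 and in 0.0142% of all starts. With shares this low, absence of this repeat or of the full sterol element does not show that a gene lacks such sites. These are matches of letters, with base composition not matched between the sets, and not measured binding sites.

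The following stretches, written 5′ to 3′ on the strand of the gene and upstream of its listed start, show the matches in 3 genes that fell, in SREBF2 and in 2 enzyme genes that did not pass the test. Capitals mark a CCAAT box in either orientation and, in SREBF2, also the sterol element, which comes first. They lie at chr21:46228912-46228932 (LSS, minus strand), chr11:71448436-71448495 (DHCR7, minus), chr6:16128969-16129030 (MYLIP, plus), chr22:41832963-41833011 (SREBF2, plus), chr16:88663164-88663258 (MVD, minus) and chrX:152830827-152830966 (NSDHL, plus).
LSS: gcgctctgATTGGttgcgtgg
DHCR7: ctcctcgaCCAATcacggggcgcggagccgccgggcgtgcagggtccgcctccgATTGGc
MYLIP: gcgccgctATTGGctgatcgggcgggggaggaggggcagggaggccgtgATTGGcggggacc
SREBF2: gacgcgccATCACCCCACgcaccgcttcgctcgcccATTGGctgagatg
MVD: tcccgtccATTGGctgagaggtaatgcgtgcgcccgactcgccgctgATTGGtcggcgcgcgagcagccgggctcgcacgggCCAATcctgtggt
NSDHL: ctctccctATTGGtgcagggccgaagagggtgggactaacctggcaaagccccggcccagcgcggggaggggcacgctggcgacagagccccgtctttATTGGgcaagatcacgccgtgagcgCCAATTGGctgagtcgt

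CCAAT boxes were present in some genes and missing in others, both among genes that fell and among those that did not pass. SQLE, which also fell, had no entry, so few fallen genes are compared. LSS had 1 CCAAT box, DHCR7 and MYLIP had 2 each, and SREBF1 had no match of any motif in this window. Among genes that did not pass, MVK and NSDHL had 5 each (4 of those of NSDHL are in the printed stretch), MSMO1 had 4, and PMVK, IDI1, CYP51A1, INSIG2, SCAP and NR1H3 had none before their first listed start.

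**Figure D2:**
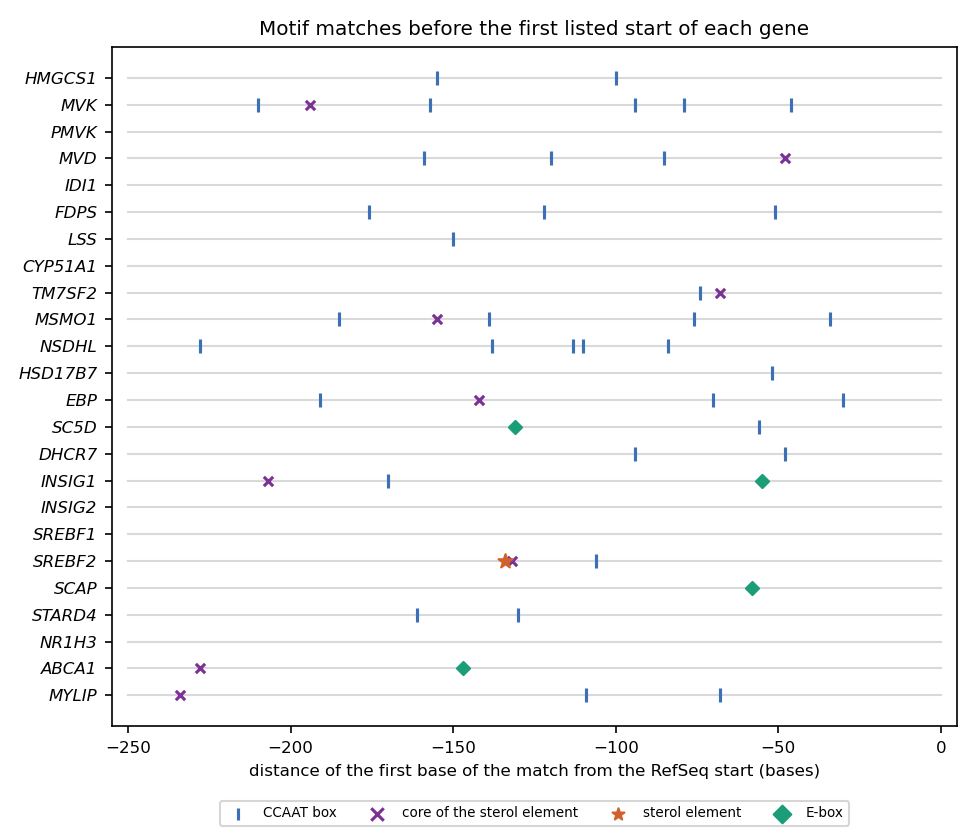
Position of each motif match in the 250 bases before the first listed RefSeq start (x axis, bases from the start) for the 24 sterol genes with an entry. CCAAT boxes are spread over most enzyme genes, with 5 before MVK and NSDHL, and the only full sterol element is that of SREBF2.

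The comparison of knockout with control asks which sterol genes differ in HL60 cells where SKI was targeted. Of the 26 genes tested, 5 fell in the knockout (LSS, SREBF1, DHCR7, MYLIP and SQLE), none rose, and 21 did not pass. The 5 are 19.2% of the tested genes, where 11.8% of all 16340 tested genes were called, 5.63% as lower and 6.19% as higher. At an unadjusted p under 0.05, 6 of the 26 were lower and 1 was higher, against 2130 lower and 2302 higher of the 16340. Their median log2 fold change was -0.19, against -0.01 over all genes tested, and the extremes were -0.996 for LSS and 0.39 for ACAT2. CPM of the groups did not overlap for 8 genes that were lower and 2 that were higher, where this holds for 32.2% of all tested genes, 16.1% lower and 16% higher. In the authors' deposited table, in which 14.4% of genes with an adjusted p passed 0.05, the same 5 genes passed, all lower, out of 27 listed with an adjusted p. In bulk RNA, fewer cells of a kind and less RNA per cell cannot be told apart.

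The count of 5 depended on the libraries used. It was 2 without control replicate 1, 1 without control replicate 2, 2 without control replicate 3, 2 without knockout replicate 1 and 3 with library totals as the scale. The count over all genes went from 1932 to 932, 740 and 1025 without control replicate 2, control replicate 3 and knockout replicate 1. LSS was called under all 15 alternatives, SREBF1 under 14, DHCR7 under 11, MYLIP under 10 and SQLE under 5, and all of their estimates were negative throughout.

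**Figure D3:**
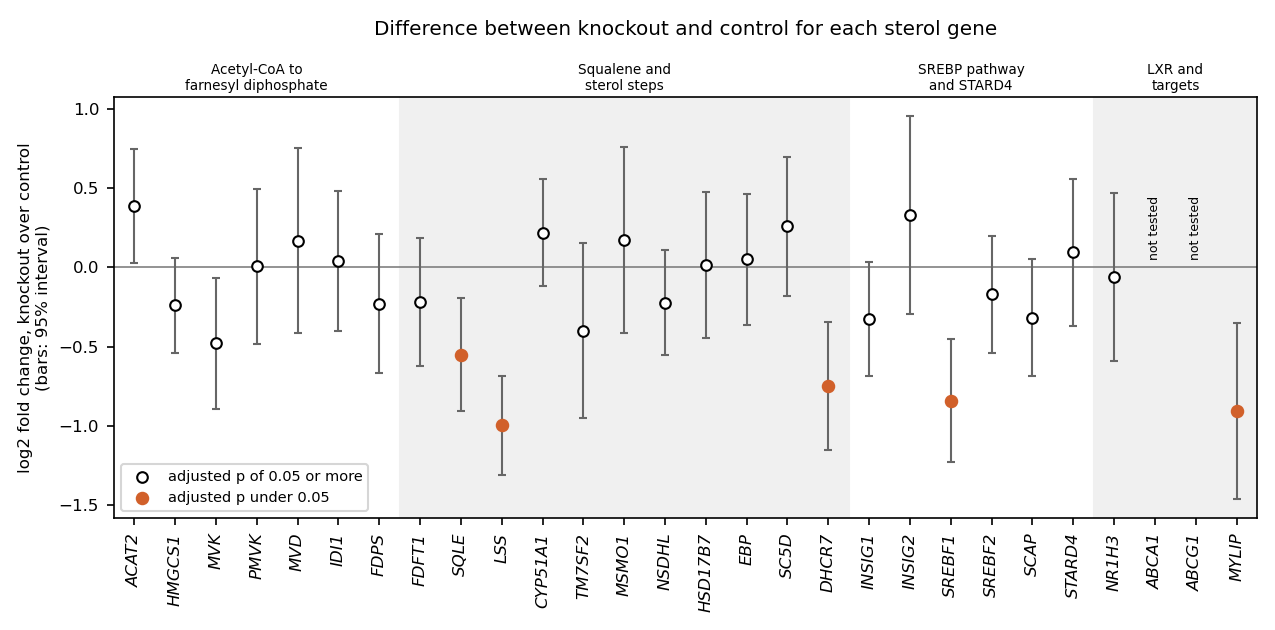
Log2 fold change of knockout over control (edgeR) with its 95% interval for the 26 tested sterol genes, filled where the adjusted p was under 0.05. The 5 filled points lie below 0, from -0.55 for SQLE to -0.996 for LSS, and ACAT2 is the highest point at 0.39.

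None of the 7 enzymes from acetyl-CoA to farnesyl diphosphate passed edgeR's test, nor DESeq2's or limma-voom's. At an unadjusted p under 0.05, MVK was lower and ACAT2 higher. The summed level of the 7 was 504, 472 and 424 CPM in the control libraries and 340, 437 and 517 CPM in the knockout libraries, so the groups overlapped. FDPS alone held 255 CPM of the mean control sum of 467 CPM. HMGCS1, which makes HMG-CoA, stood at 74.5, 74.2 and 65.8 CPM in the control and 58.8, 62.6 and 60.4 CPM in the knockout. All its knockout values lay below the control values, by a log2 fold change of -0.24 (95% interval -0.54 to 0.06, adjusted p = 0.295). MVK, the mevalonate kinase, stood at 19.7, 21.1 and 19.5 CPM in the control and at 12.5, 12.6 and 18.3 CPM in the knockout (log2 -0.48, SE 0.19, adjusted p = 0.127). Its knockout replicate 3 was close to the controls, and without that library the value was -0.66 with an edgeR adjusted p of 0.0197.

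The following enzymes of this stretch were spread more widely in the knockout than in the control. PMVK, the next kinase, had 26.7, 25.1 and 30.05 CPM in the control and 19.7, 24.7 and 37.9 CPM in the knockout, on both sides of the control range. MVD, the decarboxylase that forms isopentenyl diphosphate, had 22.5, 19.2 and 22.4 CPM against 21.1, 14.9 and 36.0 CPM (log2 0.17, 95% interval -0.42 to 0.75). The isomerase gene IDI1 had a log2 fold change of 0.04 (95% interval -0.40 to 0.48). FDPS stood at 285, 255 and 226 CPM in the control and 155, 235 and 264 CPM in the knockout (log2 -0.23, 95% interval -0.67 to 0.21), with only replicate 1 below the control range.

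ACAT2, the cytosolic thiolase of the first step, had the highest estimate of the 26 genes. It stood at 54.0, 53.2 and 42.2 CPM in the control and 55.0, 67.7 and 72.7 CPM in the knockout (log2 0.39, SE 0.17, adjusted p = 0.155). The groups did not overlap, but their nearest values differed by little. ACAT2 lies on chromosome 6, and after subtraction of the median change of its chromosome (chromosome centring) its log2 value was -0.04 (adjusted p = 0.916). Its exons overlap those of TCP1 and SOD2 on the opposite strand, and although the library kit was stranded, the sources used here do not say how strand entered the counting. Of the 28 sterol genes, 12 have exons over a gene on the opposite strand, among them FDPS, MVK and NR1H3.

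Of the 11 enzymes from squalene to cholesterol, 3 fell, none rose and 8 did not pass, with a median log2 fold change of -0.22. The 3 are 27.3% of the 11, where 11.8% of all tested genes were called, 5.63% as lower. LSS, the lanosterol synthase that closes the sterol rings, had control values of 88.2, 90.9 and 95.9 CPM against knockout values of 46.8, 49.7 and 41.4 CPM. Every knockout value was far below every control value. LSS was 1.99-fold lower (log2 -0.996, SE 0.14, edgeR adjusted p = 0.00173), and the estimate ranged only from -1.03 to -0.91 over the alternatives. The authors' deposited table gives LSS a log2 value of -0.94 (adjusted p = 1.35e-06). Its exons overlap unnamed antisense transcripts.

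DHCR7, the reductase of the last step to cholesterol, stood at 72.4, 80.1 and 67.8 CPM in the control and at 37.1, 56.6 and 37.4 CPM in the knockout. Knockout replicate 2 was the one nearest to the controls. The gene was 1.68-fold lower (log2 -0.75, SE 0.19, edgeR adjusted p = 0.0225). Its adjusted p was 0.0565, 0.100 and 0.0681 without control replicates 1, 2 and 3, and 0.0932 without knockout replicate 1, with log2 values from -0.81 to -0.63.

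SQLE, the squalene epoxidase, passed the threshold narrowly. It stood at 27.8, 26.5 and 30.8 CPM in the control and 17.1, 21.6 and 19.5 CPM in the knockout, with no overlap (log2 -0.55, SE 0.16, edgeR adjusted p = 0.0481). Its adjusted p was 0.124, 0.105 and 0.182 without control replicates 1, 2 and 3, 0.152 and 0.0543 without knockout replicates 1 and 3, and 0.0758 with library totals. It was 0.0623 with the replicate number as a block, 0.0725 with chromosome centring, 0.0769 with no filter and 0.0529 with the authors' size factors. The log2 estimates of SQLE lay between -0.61 and -0.45 throughout.

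The enzymes beside these in the pathway did not pass. FDFT1, which feeds SQLE, had 188, 172 and 166 CPM in the control and 114, 149 and 189 CPM in the knockout (log2 -0.22, 95% interval -0.62 to 0.19). CYP51A1, the lanosterol demethylase that follows LSS, had 38.7, 34.2 and 31.7 CPM against 39.1, 37.4 and 45.3 CPM (log2 0.22, 95% interval -0.12 to 0.56). The interval of CYP51A1 thus lies wholly above that of LSS, -1.31 to -0.68, although the difference between these genes was not itself tested. NSDHL, which removes methyl groups with MSMO1 and HSD17B7, had 27.2, 25.98 and 26.7 CPM in the control and 20.7, 23.99 and 23.8 CPM in the knockout. Its groups did not overlap, with a log2 fold change of -0.22 (95% interval -0.55 to 0.11).

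The other sterol enzymes had estimates on both sides of 0. MSMO1, a methylsterol oxidase, had 12.7, 12.7 and 9.05 CPM in the control and 10.0, 9.75 and 19.1 CPM in the knockout (log2 0.17), so 1 knockout library was above the controls and the other two within their range. TM7SF2, a sterol reductase, had 14.98, 15.6 and 19.9 CPM against 9.31, 10.5 and 18.5 CPM (log2 -0.40, adjusted p = 0.343). Without knockout replicate 3 TM7SF2 was at -0.74 with an edgeR adjusted p of 0.0212. HSD17B7, a sterol ketoreductase, had a log2 fold change of 0.02, and copies named as its pseudogenes held 10.3% of the reads of gene and copies together, so its level is uncertain. EBP was at 0.05 and SC5D at 0.26, the latter with all knockout values (7.93 to 10.7 CPM) above the control values (6.96 to 7.75 CPM) and an adjusted p of 0.443. Exons of TM7SF2 and CYP51A1 overlap another gene on the same strand.

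Of the 6 genes of the SREBP pathway and sterol transport, SREBF1 fell and the other 5 did not pass. The share called was 16.7%, against 11.8% of all tested genes. SREBF1 had control values of 121, 151 and 123 CPM against knockout values of 78.4, 85.0 and 57.7 CPM. All knockout values lay well below the control values, with replicate 3 the lowest. SREBF1 was 1.79-fold lower (log2 -0.84, SE 0.18, edgeR adjusted p = 0.0106), and only without control replicate 2 did it miss the threshold (-0.73, adjusted p = 0.0624). The gene has exons that overlap RAI1 on the opposite strand. SREBF2, its relative and the main activator of sterol synthesis genes, had 374, 475 and 439 CPM in the control and 370, 437 and 338 CPM in the knockout (log2 -0.17, 95% interval -0.54 to 0.20). Its groups overlapped. SREBF2 lies on chromosome 22, and with chromosome centring it was at -0.39 (adjusted p = 0.178).

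The partners that hold or escort the SREBPs had estimates on both sides of 0. SCAP, the escort, had 105, 104 and 136 CPM in the control and 89.1, 80.6 and 107 CPM in the knockout (log2 -0.32, 95% interval -0.68 to 0.05). INSIG1, a retention factor and itself an SREBP target, had 58.7, 63.3 and 46.9 CPM against 39.9, 50.1 and 44.6 CPM (log2 -0.33, 95% interval -0.69 to 0.03). For each of these genes 2 of the 3 knockout libraries lay below the lowest control and 1 within the control range. INSIG2, the other retention factor, had 7.74, 5.77 and 6.57 CPM in the control and was spread from 5.15 to 12.1 CPM in the knockout (log2 0.33, 95% interval -0.29 to 0.95). STARD4 was at 0.10 (95% interval -0.37 to 0.56).

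Among the 4 LXR genes, MYLIP fell, NR1H3 did not pass, and ABCA1 and ABCG1 had too few counts to be tested. MYLIP stood at 29.1, 25.2 and 24.4 CPM in the control and at 15.7, 18.2 and 8.19 CPM in the knockout. The groups did not overlap, and knockout replicate 3 was far below the others. MYLIP was 1.87-fold lower (log2 -0.90, SE 0.25, edgeR adjusted p = 0.0399). Its adjusted p was 0.106, 0.0918 and 0.107 without control replicates 1, 2 and 3, 0.0892 without knockout replicate 1 and 0.0729 with library totals. MYLIP lies on chromosome 6, whose genes were higher on median, and centred on that chromosome it was at -1.33 (adjusted p = 0.00892). Without knockout replicate 3 it was at -0.61 (adjusted p = 0.0294).

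NR1H3, the LXR-alpha gene, had 2.87 to 3.89 CPM in the control and 2.67 to 3.49 CPM in the knockout (log2 -0.06, 95% interval -0.59 to 0.47). ABCA1 had 4, 0 and 2 counts in the control libraries and 0 in each knockout library. A count of 0 there allows up to 0.0542, 0.0621 and 0.0572 CPM, so a fall of ABCA1 from its control level could not be detected at this depth. ABCG1 had 6, 7 and 8 counts in the control and 13, 3 and 27 in the knockout, a range that takes in all control values. These floors cover counting error only.

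Knockout libraries differed among themselves in the sterol genes. The median SD of log2 CPM over the 26 genes was 0.17 in the control and 0.27 in the knockout, against 0.19 and 0.29 over all genes tested. Of the 26 genes, 14 had their highest knockout value in replicate 3, 53.8% of them against 37.8% of all tested genes. Median differences of the 26 genes from the control mean were -0.33, -0.21 and 0.09 on the log2 scale in knockout replicates 1, 2 and 3, against -0.01, 0.01 and -0.01 over all genes tested. The 5 genes that fell were each highest in knockout replicate 2 of the 3, as were 5224 of all 16340 tested genes. For the 5 this is a description only, because the same values decided their calls. MPO was at 3472, 8538 and 2562 CPM in these libraries, so it too was highest in replicate 2. The part of this marker in the results was not tested. Summed over the 18 enzymes, levels were 1112, 1057 and 979 CPM in the control and 738, 920 and 1072 CPM in the knockout. Of the mean control sum of 1049 CPM, FDPS, FDFT1 and EBP held 255, 175 and 109 CPM, so the sum mostly follows a few abundant genes.

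**Figure D4:**
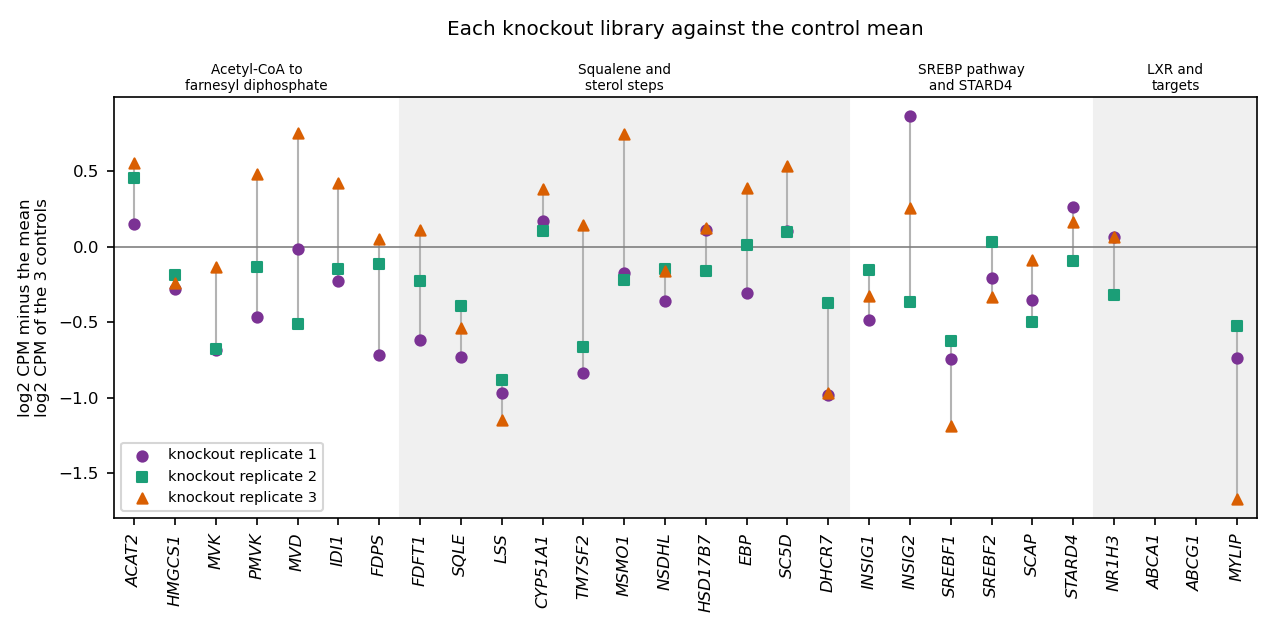
For each tested sterol gene, log2 CPM of each knockout library minus the mean log2 CPM of the 3 control libraries, with a grey line from the lowest to the highest of the 3. Replicate 3 (triangles) is the highest point for 14 genes, among them MVD, MSMO1 and IDI1, and the lowest for 4, namely LSS, SREBF1, SREBF2 and MYLIP.

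Other genes of sterol and lipid metabolism were counted in 6 further lists. These lists too were chosen with earlier results of these data known, so their shares are descriptions and no independent result. Of 12 fatty acid genes under SREBP control, 3 fell, 1 rose and 8 did not pass, 33.3% called against 11.8% of all tested genes. Their median log2 fold change was -0.46, and 11 of 12 estimates (91.7%) were below 0, against -0.01 and 50.8% over all genes tested. FASN, the fatty acid synthase, stood at 324, 425 and 485 CPM in the control and at 200, 253 and 126 CPM in the knockout, with no overlap (log2 -1.09, SE 0.25, edgeR adjusted p = 0.0147). It missed the threshold without control replicate 2 (0.0521), control replicate 3 (0.0831) or knockout replicate 1 (0.0587). The desaturase genes FADS1 and FADS2, neighbours on chromosome 11 whose exons overlap, were at -0.64 (adjusted p = 0.0182) and -0.75 (0.0131). FADS1 missed the threshold without control replicates 1, 2 and 3 (0.0785, 0.0515 and 0.0856) and without knockout replicate 1 (0.0688), and FADS2 without control replicate 3 (0.0634). ELOVL5, an elongase gene, rose from 72.4, 79.1 and 72.8 CPM to 107, 130 and 114 CPM (log2 0.65, adjusted p = 0.0136). ELOVL5 lies on chromosome 6, and centred on that chromosome it was at 0.22 (adjusted p = 0.376). It also missed the threshold without control replicates 1, 2 and 3 (0.0708, 0.0553 and 0.0767).

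In the other 5 lists the share of tested genes called ran from 0% to 14.3%, near or below the 11.8% of all tested genes. Of 16 tested genes of sterol uptake, trafficking, esterification and oxysterols, 2 fell. GRAMD1B, which carries sterol from the plasma membrane to the endoplasmic reticulum, went from 25.4, 30.7 and 24.2 CPM to 9.34, 10.9 and 7.64 CPM (log2 -1.52, SE 0.19, edgeR adjusted p = 0.000823) and kept its call in all 15 alternatives. SCARB1, a receptor for high-density lipoprotein, was at 127, 142 and 181 CPM against 76.9, 115 and 68.6 CPM (log2 -0.79, adjusted p = 0.0335). It missed the threshold without control replicate 2 (0.0821), control replicate 3 (0.163) or knockout replicate 1 (0.126), and with library totals (0.0511). Of 12 genes of SREBP processing and sterol-regulated turnover, TRIB1, a pseudokinase that steers proteins such as C/EBP-alpha to degradation, fell by 0.94 on the log2 scale (adjusted p = 0.00580). Of 13 genes of the non-sterol branches, NUS1, a subunit of the enzyme that makes dolichol precursors, rose by 0.75 (adjusted p = 0.00975). NUS1 lies on chromosome 6 and was at 0.32 (adjusted p = 0.227) when centred on it, and missed the threshold without control replicate 3 (0.0613). None of 9 accessory sterol enzymes passed with edgeR, DESeq2 or limma-voom (0 lower and 1 higher at an unadjusted p under 0.05, and estimates from -0.25 to 0.37).

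PLTP was the only one of 7 tested LXR partners and targets to pass. It encodes a phospholipid transfer protein and had 7, 1 and 2 counts in the control libraries and 90, 37 and 110 counts in the knockout libraries (log2 4.54, SE 0.62, edgeR adjusted p = 0.00139). All 3 knockout values were above the controls, but the control level rests on few reads. The estimate ranged from 4.06 to 5.73 over 14 alternatives, all with an adjusted p under 0.05. In the authors' deposited table the log2 value of PLTP was 3.03 (SE 0.37), below that range. PLTP passed the main filter on low counts through its knockout libraries alone, so its call is not independent of that filter. With a filter of 1 CPM in 3 libraries PLTP was not tested. Exons of PLTP overlap those of CTSA on the opposite strand. The other 6 genes of that list had log2 fold changes no lower than -0.44.

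**Figure D5:**
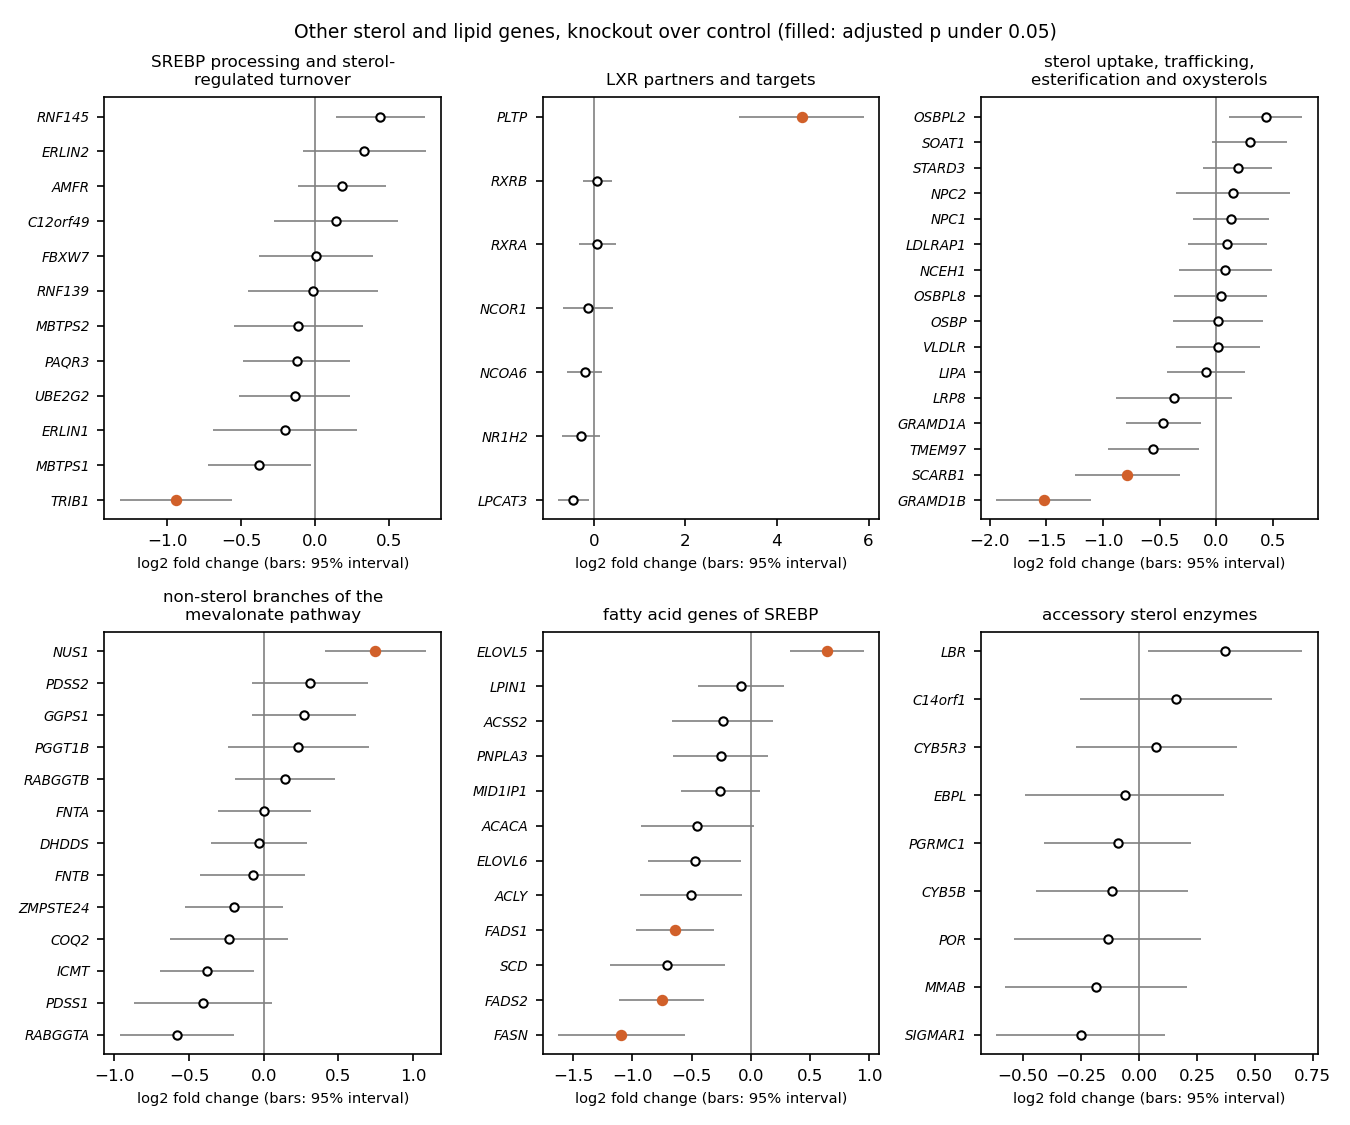
Log2 fold change of knockout over control with its 95% interval for the tested genes of the 6 further lists, filled where the edgeR adjusted p was under 0.05; x axes differ between panels. In the fatty acid panel all genes but ELOVL5 lie below 0, and PLTP at 4.54 stands apart in the LXR panel.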

How the data were processed

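Raw counts per gene, with a gene length, were deposited by the authors for 6 libraries, 47930276 to 58553247 counts each. The builds hg19 and GRCh37 and the tools featureCounts (Subread), TopHat2, bcl2fastq, DESeq2 and DESeq appear in the submitters' processing notes. Their versions, the annotation and the strand setting were not given in the sources used here. A second deposited table holds a signal, the authors' counts over size factors, with the authors' log2 fold changes, a test score and p-values. It served only for those size factors and the values credited to it. Columns were matched to samples by group and replicate number. Genes kept by filterByExpr (16340) were TMM-scaled and tested, knockout against control with no covariate, by edgeR 4.0.16's quasi-likelihood test with Benjamini-Hochberg adjustment over all of them and a threshold of 0.05 (R 4.3.3, limma 3.58.1, DESeq2 1.42.0). Standard errors and 95% intervals come from the F statistic, and log2 CPM uses a prior count of 2. No list was tested as a set. Members and lists were chosen with earlier results of these data known. Named are all members, SKI, markers, and up to 4 called genes per further list. Data were simulated for this comparison (16062 genes), with 100 genes changed 2-fold and 100 changed 4-fold. All of these were above an average log2 CPM of 2. On such data the test called 83% of 2-fold and 100% of 4-fold changes, with 4.19% of its calls on unchanged genes. Smaller changes, lower levels and shifts of whole chromosomes were not simulated, so these rates do not cover them. Alternatives were other scalings, filters and tests, a replicate block, chromosome centring (83% of tested genes had a chromosome) and leaving out each library. Exon overlaps came from GENCODE 29 by symbol and promoters from RefSeq, both on a later build than the counts.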

Additional observations from a re-analysis of the deposited data

How the results depend on the processing

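Of 390 values of the 26 tested sterol genes under an alternative, 368 kept their direction where called and their side of the threshold, 20 lost a call, 2 gained one, and no called value changed sign. Among genes called in neither fit, 19 values in 10 genes changed sign. The number of sterol genes called lower was 5, 3 with library totals, and 1 to 6 when a library was left out. The number called higher was 0 under every alternative run. Of the further lists 6 genes were called lower, 10 with DESeq2's Wald test and 2 to 11 with a library left out, and 3 higher, 1 with chromosome centring and 1 to 4 with a library left out. Over all genes 1932 were called, and 740 to 2488 with a library left out. Of these 1012 were higher, 1630 with no filter on low counts, and 440 to 1410 with a library left out, and 920 lower, 521 with chromosome centring and 300 to 1078 with a library left out. Fits without a library hold fewer samples. Searching for CACNCCA in place of the full sterol element raised the share of member starts with a match from 3.0% to 36.4%. Other scalings moved the median of all genes by at most 0.03 on the log2 scale.

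Deviations of same-numbered libraries correlated at -0.09, 0.30 and -0.04 for replicates 1, 2 and 3. The highest correlation, 0.34, was that of control replicate 1 with knockout replicate 3. Same numbers were not taken as pairs because the labels name none. With deviations taken within groups of 3 libraries, these correlations cannot show whether same-numbered libraries were handled together. With a replicate block 4 sterol genes were called lower, SQLE having an adjusted p of 0.0623, and 2107 genes in all.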
